A study of Homo sapiens with 3 samples.

Results

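*ANGPTL4* and 8 further genes of the peroxisome proliferator-activated receptor (PPAR) and fatty acid pathway were described in HCT-116 cells, a human colon carcinoma line, with and without silencing of *APC*. They were the rows of the deposited table whose gene symbol was *ANGPTL4*, *PLIN2*, *PDK4*, *CPT1A*, *PPARD*, *PPARA*, *PPARG*, *ACADVL* or *HADHA*, which gave 9 genes of 23131 in all. They were selected on the FPKM of these same libraries, with their ratios known, so all values of these genes are given as a description and none was tested. HCT-116 cells carry wild-type *APC* and a mutant *CTNNB1* that lacks a serine, so that β-catenin resists degradation in both groups compared. The anti-*APC* group received a pool of siRNA against *APC* on 2 consecutive days with the lipid reagent Dharmafect 2. The control cells are called untransfected in one label and mock-transfected with reagent only in another. All cells were harvested 48 hours after the second transfection, and mRNA was sequenced from 1 library per condition. Another library, from cells given scrambled siRNA, was not analysed here, so the ratios below include any effect of siRNA delivery. The anti-*APC* siRNA cells are called silenced and the untransfected cells control cells below. There were no replicates, and a difference between the 2 libraries has no replicate check.

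PPARs are nuclear receptors that bind fatty acids and their derivatives, pair with a retinoid X receptor (RXR) and activate genes of lipid handling. PPARα is best known for fatty acid oxidation in liver, PPARγ for fat storage in adipocytes and for differentiation of colon epithelium, and PPARδ is a widely expressed form that has long been studied in colorectal tumors with *APC* loss. *ANGPTL4* encodes a secreted inhibitor of lipoprotein lipase and is a classical target of PPARs, of hypoxia-inducible factors and of glucocorticoids. *PLIN2* encodes a lipid droplet coat protein, *PDK4* a kinase that shuts off pyruvate dehydrogenase, *CPT1A* the carnitine acyltransferase that admits long-chain fatty acids to mitochondria, and *ACADVL* and *HADHA* enzymes of mitochondrial β-oxidation.

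The values were FPKM, the number of fragments divided by transcript length and by library size, so levels of different genes can be set side by side per length. The silencing itself was visible, as *APC* had 9.15 FPKM in the untransfected library and 3.43 FPKM with anti-*APC* siRNA. Of 8 colon epithelial markers, 6 had a mean of at least 1 FPKM, with a summed level of 1650 FPKM in control and 1295 FPKM in silenced cells, while *VIL1* was near 0 (listed at 0 without and at 0.0313 FPKM with anti-*APC* siRNA) and *KRT20* stood at 0.475 and 0.718 FPKM. The 4 leukocyte markers summed to at most 0.151 FPKM and the 4 endothelial markers to at most 0.128 FPKM. Of the fibroblast markers only *COL1A1* passed 1 FPKM, and the 4 adipocyte and liver markers summed to at most 0.442 FPKM. Read counts were not listed, but the smallest steps of FPKM placed the depth near 25400000 reads for the control and 23200000 reads for the silenced library. Intervals given below come from the numbers of reads this implies and cover counting error only.

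*ANGPTL4* was the gene of the set with the widest difference, and its upstream sequence is shown for that reason. The gene lies on chromosome 19 of GRCh37 (hg19) from 8428173 to 8439254 on the plus strand, and its canonical transcript has 7 exons and 1872 bases. RefSeq gives it 1 start. The 250 bases before that start, at chr19:8363905-8364154 of GRCh38.p14, plus strand, are printed 5′ to 3′ with 2 short motifs in capitals.
ANGPTL4 upstream: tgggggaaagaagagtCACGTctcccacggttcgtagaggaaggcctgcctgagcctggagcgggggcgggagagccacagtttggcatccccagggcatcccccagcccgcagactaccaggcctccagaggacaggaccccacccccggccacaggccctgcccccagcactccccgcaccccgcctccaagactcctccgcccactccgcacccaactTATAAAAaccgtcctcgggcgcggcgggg

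The capitals nearest the end mark a TATA box, TATAAAA, from 29 to 23 bases before the start. The other capitals are the core of a hypoxia response element (ACGTG, read here on the minus strand) from 234 to 230 bases before it. Over all 35116 RefSeq windows of 250 bases before to 50 bases after a start, with both strands searched, 4.52% held the first motif and 21.4% the second. The first was also in windows of *PPARG*, and the second in windows of *PLIN2*, *ACADVL* and *PPARG*.

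The PPAR half-site AGGTCA, present in 13.8% of windows, was found only at starts of *PPARG* among these genes. Its direct repeat AGGTCANAGGTCA, present in 0.0228% of windows, was in none of the 16 windows of the 9 genes. A match is only a run of letters, and the absence of one says nothing of a factor.

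The WNT effector TCF7L2 and AP-1 are the factors the study set beside APC. The TCF7L2 sequence NNCAAAG, searched with only A or T allowed at each N (13.8% of windows), was in 1 of the 16 windows, and the AP-1 sequence TGACTCA (4.95% of windows) was also in 1, both at starts of *ACADVL*.

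Functional PPAR sites often lie further from the start, so the 5000 bases on each side of the canonical start were also read in GRCh37. The direct repeat with at most 1 of its 12 fixed letters changed was in 9.47% of 16764 such windows of protein-coding genes and, among the 9 genes, in that of *PDK4*. With at most 2 changed letters it was in 63.3% of windows and in 6 of the 9, so such matches are common. There were 10 such matches in all, of which 4 were in *CPT1A*, 2 in *ACADVL* and 1 each in *HADHA*, *PDK4*, *PLIN2* and *PPARA*. The 4 printed here were picked by eye, 1 each for target genes whose values differ from one another and, in *CPT1A* and *ACADVL*, the match that both genes hold. Capitals mark letters that match the repeat, and the seventh letter is the free spacer.
PDK4 upstream: AaGTCAtAGGTCA
CPT1A intron: AGGggAaAGGTCA
ACADVL intron: AGGggAaAGGTCA
PLIN2 upstream: AaGTaAgAGGTCA

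The *PDK4* sequence lies at chr7:95230541-95230553, 4719 bases upstream of the canonical start. The printed *CPT1A* match is in intron 1 at chr11:68606868-68606880 and the printed *ACADVL* match in intron 2 at chr17:7123674-7123686, both on the plus strand of the genome. These were the same 13 letters in both genes. The *PLIN2* sequence lies on the minus strand at chr9:19129805-19129817, 2321 bases upstream of the canonical start at 19127490, though inside the annotated span of the gene, which includes longer transcripts. *ANGPTL4*, *PPARD* and *PPARG* had no match with at most 2 changed letters in their windows.

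*PPARG* was the most abundant of the PPARs in these colon cancer cells. It lies on chromosome 3 from 12328867 to 12475855. Its level was 46.4 FPKM in the untransfected library and 34.1 FPKM with anti-*APC* siRNA. It was thus lower with anti-*APC* siRNA, at 73.4% of the untransfected level.

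*PPARD*, on chromosome 6 from 35310335 to 35395968, had 13.3 FPKM in control and 14.4 FPKM in silenced cells. It was nearly level between the libraries, and its ratio fell to the other side of 1 (log2 -0.02) when the libraries were centred on the FPKM of 1 read. *PPARA*, on chromosome 22 from 46546424 to 46639652, had 1.89 FPKM in control and 1.480 FPKM in silenced cells. It was the scarcest of the receptors in both libraries.

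In untransfected cells *PPARG* stood 3.48-fold above *PPARD* and 24.5-fold above *PPARA*, and made up 75.3% of the summed FPKM of the 3 receptors. With anti-*APC* siRNA its share was 68.2%, that of *PPARD* went from 21.7% to 28.8%, and the sum went from 61.6 to 49.9 FPKM. The log2 ratio of anti-*APC* siRNA over untransfected was -0.45 for *PPARG* (interval -0.54 to -0.35), 0.11 for *PPARD* (-0.00 to 0.22) and -0.35 for *PPARA* (-0.55 to -0.15). None of these reached 1.5-fold in either direction. Transcript level does not give the amount or activity of the receptor proteins, which were not measured here.

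The RXR partners and coregulators differed little between the libraries. *RXRB* had 14.2 FPKM in both, *RXRA* had 10.5 FPKM in control and 8.41 FPKM in silenced cells, and *RXRG* was listed at 0. Cuffdiff marked *RXRB* as not tested. Of 15 receptors, partners and coregulators with a mean of at least 1 FPKM, 0 were 1.5-fold higher (2.56% of all 12063 genes with that mean) and 0 were 1.5-fold lower (6.61%). The most abundant were *PPRC1*, a coactivator of the PGC-1 family, at 53.1 FPKM in control and 51.3 FPKM in silenced cells, *PPARG* itself, and *MED1*, a Mediator subunit that binds nuclear receptors, at 34.9 and 38.4 FPKM. *PPARGC1A*, which encodes the coactivator PGC-1α, was listed at 0 in both libraries. Across all rows 269 genes with a failed estimate are also listed at 0, so a 0 alone is not evidence of silence. *RXRG* and *PPARGC1A*, and *LPL*, *FABP1* and *FABP4* below, were not among these failed estimates. Cuffdiff marked them as not tested.

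**Figure D1:**
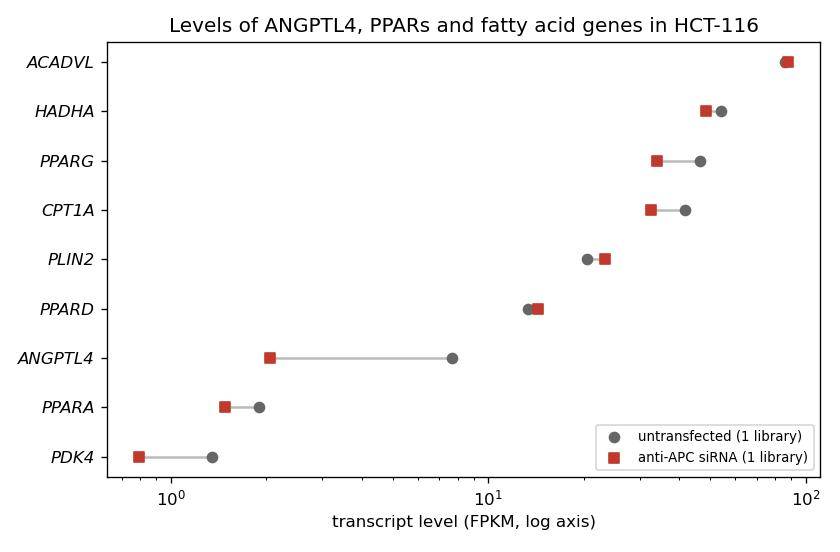
Transcript level in FPKM (log axis) of the 9 genes in the untransfected library (circles) and the anti-*APC* siRNA library (squares), 1 library each, ordered by the untransfected level. *ANGPTL4* has the longest line between its points (7.70 and 2.06 FPKM), and *ACADVL* the shortest (86.2 and 88.0 FPKM).

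The receptor and target genes were spread over a wide range of levels, and their order was the same in both libraries. From the highest it was *ACADVL*, *HADHA*, *PPARG*, *CPT1A*, *PLIN2*, *PPARD*, *ANGPTL4*, *PPARA* and *PDK4*. *PPARG* and *CPT1A* were the closest neighbours, at 0.15 apart on the log2 scale in the untransfected library and 0.07 apart in the anti-*APC* library. Both distances were less than 0.19, the spread of log2 ratios between the libraries among genes of their level (the median absolute deviation, scaled to an SD). That spread is between libraries and does not give the error of a difference between genes within a library. Whether *PPARG* and *CPT1A* differ in level was not tested. The gap between *PPARD* and *ANGPTL4* was 1.73-fold without and 7.0-fold with anti-*APC* siRNA.

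*ANGPTL4* had 7.70 FPKM in the untransfected library and 2.06 FPKM with anti-*APC* siRNA. It was thus 3.74-fold lower, with 26.7% of its level left. The log2 ratio was -1.90, with a counting interval of -2.26 to -1.57 from about 366 and 89 reads.

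Genes of a like level, taken as those whose mean FPKM lay within 0.5 on the log2 scale, show what separates these 2 libraries in general. For *ANGPTL4* there were 1718 such genes, the central 90% of which had log2 ratios from -0.72 to 0.42. Only 3 of them (0.175%) had a ratio as low or lower. Over all 12063 genes with a mean of at least 1 FPKM, 20 did, *ANGPTL4* included. No other gene of the table lay at its locus.

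*PDK4* was the other gene of the set that passed 1.5-fold. It lies on chromosome 7 from 95212811 to 95225828 and had 1.35 FPKM in control and 0.794 FPKM in silenced cells. The level was 1.70-fold lower, with a log2 ratio of -0.76 and a counting interval of -1.22 to -0.32 from about 123 and 66 reads. This difference was not unusual for so low a level, as 14.0% of 961 genes of like level were as low or lower and their central 90% ran from -1.09 to 0.72. Their median was -0.23, and with that subtracted *PDK4* was at -0.53, short of 1.5-fold. *PDK4* reached the minimum mean of 1 FPKM through its untransfected level. With 1 FPKM added to both values its log2 ratio was -0.39.

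Of the 9 genes, 2 were thus at least 1.5-fold lower with anti-*APC* siRNA, where 6.61% of the 12063 genes tested were, and 0 were 1.5-fold higher, where 2.56% were. These counts describe genes that were chosen with their values known. The next in size was *PPARG*, at 1.36-fold lower.

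*CPT1A*, on chromosome 11 from 68522088 to 68611878, had 41.7 FPKM in control and 32.5 FPKM in silenced cells. It was 1.28-fold lower, with a log2 ratio of -0.36 (counting interval -0.42 to -0.30). Among 1833 genes of like level 7.69% were as low or lower, and the central 90% reached down to -0.43, so *CPT1A* was inside that range. *PPARG* was just outside its own range, which also ended at -0.43, and 83 of its 1730 genes of like level were as low or lower.

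*PLIN2*, on chromosome 9 from 19108373 to 19149288, differed from these in sign. It had 20.4 FPKM in control and 23.3 FPKM in silenced cells, a log2 ratio of 0.19 (counting interval 0.07 to 0.32). As many as 14.0% of genes of like level were as high or higher. *PLIN2* and *ANGPTL4* are both regarded as direct PPAR targets, and in these libraries their ratios lay on opposite sides of 1.

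The enzymes of mitochondrial β-oxidation were the most abundant of the set and close to level. *ACADVL*, on chromosome 17 from 7120444 to 7128585, had 86.2 FPKM in control and 88.0 FPKM in silenced cells, a log2 ratio of 0.03 (counting interval -0.03 to 0.09). Cuffdiff placed *ACADVL* at a locus with *DLG4* (1.03 FPKM in control and 0.834 FPKM in silenced cells) and *MIR324* (164 and 190.3 FPKM), and how reads were divided between these genes was not tested. *HADHA*, on chromosome 2 from 26413504 to 26467540, had 54.0 FPKM in control and 48.6 FPKM in silenced cells, a log2 ratio of -0.15 (counting interval -0.22 to -0.08). *HADHB*, which encodes the other subunit of the same trifunctional enzyme, had 42.1 and 39.1 FPKM, a log2 ratio of -0.11. Both subunits of this complex differed little between the libraries.

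**Figure D2:**
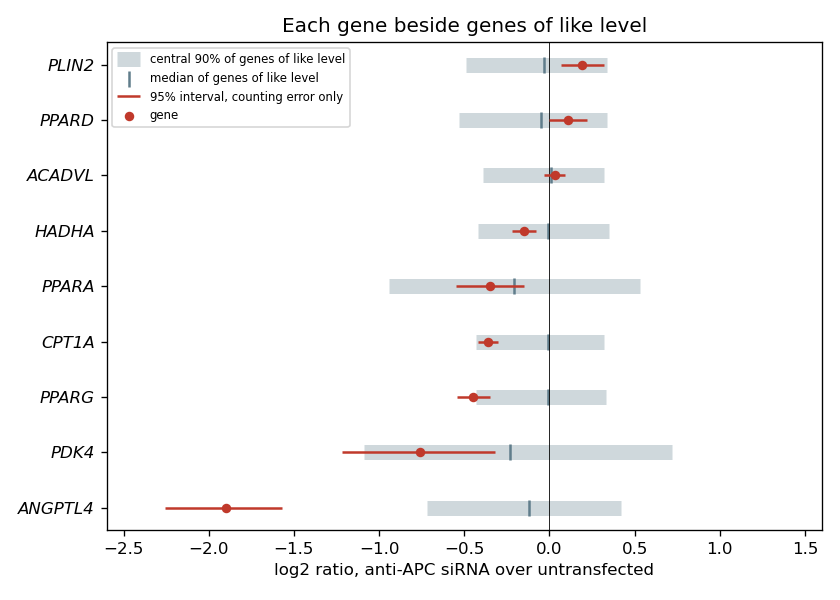
Log2 ratio of anti-*APC* siRNA over untransfected for the 9 genes (points), with the 95% interval from counting error (lines) and the central 90% of genes of like level (bars, with their median as a tick). *ANGPTL4* lies far below its bar, *PPARG* at the lower edge of its bar, and the other 7 inside theirs.

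**Figure D3:**
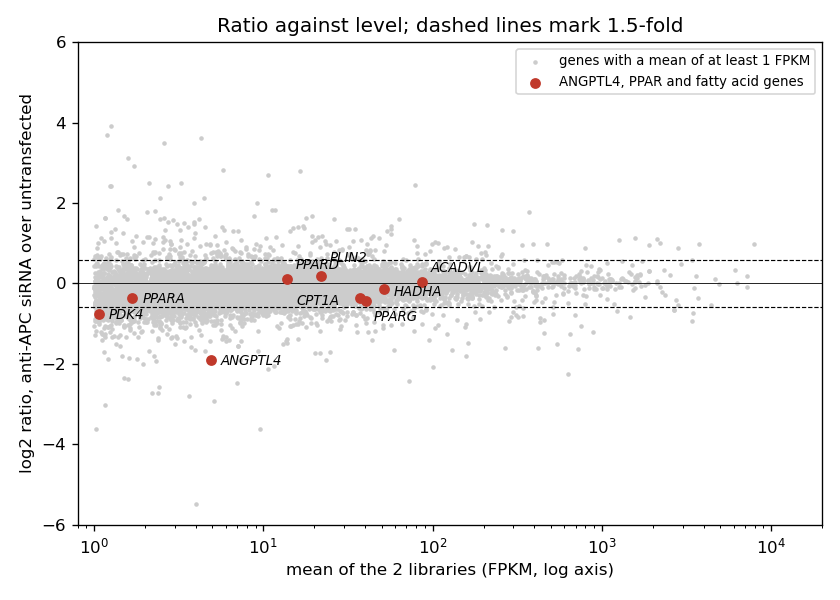
Log2 ratio against the mean of the 2 libraries in FPKM (log axis) for genes with a mean of at least 1 FPKM (grey) and the 9 genes (red), with dashed lines at 1.5-fold. *ANGPTL4* and *PDK4* lie below the lower line, and 2 genes lie outside the axes.

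Lists of related genes place the set in its pathway. They are described by counts at 1.5-fold and by the median log2 ratio, beside a median of -0.05 over all 12063 genes tested. Of all genes tested 6.61% were 1.5-fold lower, 2.56% were 1.5-fold higher and 7073 had a ratio under 1. In the lipoprotein lipase axis only 3 of 8 listed genes had a mean of at least 1 FPKM. Besides *ANGPTL4* these were *LMF1* and *GPD1*. *LMF1*, a maturation factor of lipases, had 3.36 FPKM in control and 2.17 FPKM in silenced cells (1.55-fold lower). *GPD1* had 1.12 and 0.964 FPKM. It encodes a glycerol phosphate dehydrogenase and was on this list although it is not a gene of lipoprotein lipase control. With the median of genes of like level subtracted, the log2 ratio of *LMF1* was -0.47, short of 1.5-fold. *LPL*, the lipase that ANGPTL4 inhibits, was listed at 0 in both libraries. *LIPG*, endothelial lipase, had 0.432 FPKM in control and 0.201 FPKM in silenced cells, below the minimum.

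Of 11 lipid droplet and lipolysis genes, 1 was 1.5-fold lower (6.61% of all genes tested) and 0 were higher (2.56%). The median log2 ratio was -0.10. The gene was *MGLL*, monoglyceride lipase, at 4.26 FPKM in control and 2.17 FPKM in silenced cells, with 50.9% left. *PLIN3*, the most abundant perilipin, had 83.9 and 66.5 FPKM, a log2 ratio of -0.34, so that it and *PLIN2* differed in opposite directions. The triglyceride lipase gene *PNPLA2* had 18.98 and 19.36 FPKM. *HILPDA*, a lipid droplet protein gene listed under its older symbol *C7orf68* and also known as a hypoxia target, had 14.4 and 13.8 FPKM.

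Of 11 genes of the pyruvate dehydrogenase switch, 6 had a ratio under 1, against 7073 of 12063 genes tested. The median log2 ratio was -0.14, and 0 genes were 1.5-fold higher (2.56% of all genes tested). Only *PDK4* was 1.5-fold lower (6.61%). All 4 pyruvate dehydrogenase kinase genes, set apart after their values were seen, were lower with anti-*APC* siRNA, also against genes of like level. *PDK1* had 4.99 FPKM in control and 3.74 FPKM in silenced cells (log2 ratio -0.42), *PDK2* had 12.9 and 9.67 FPKM (-0.41), and *PDK3* had 5.79 and 4.64 FPKM (-0.32). *PDK4* was the scarcest of the kinases and gave 5.39% of their summed FPKM without and 4.21% with anti-*APC* siRNA. The sum went from 25.0 to 18.8 FPKM, a log2 ratio of -0.41. The genes of the enzyme complex they inhibit lay near level, with log2 ratios of 0.06 for *PDHA1*, 0.12 for *PDHB*, 0.13 for *DLD* and -0.14 for *DLAT*. Of the phosphatases that switch the complex back on, *PDP1* had 370 FPKM in control and 378 FPKM in silenced cells, the highest level in this list, and *PDP2* had 6.87 and 5.82 FPKM.

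In fatty acid uptake and activation 1 of 11 genes was 1.5-fold lower (6.61% of all genes tested) and 0 were higher (2.56%). The median log2 ratio was -0.06. *SLC27A3*, a fatty acid transport protein gene, had 3.31 FPKM in control and 1.56 FPKM in silenced cells, 2.12-fold lower. The most abundant, *FABP5*, which encodes a fatty acid-binding protein, had 182 and 178 FPKM. The acyl-CoA synthetase gene *ACSL5* had 85.8 and 107 FPKM (log2 ratio 0.32), *ACSL4* had 30.2 and 38.2 FPKM (0.34), and *ACSL3* had 51.7 and 49.6 FPKM (-0.06). *FABP1* and *FABP4*, targets well known from liver and fat, were listed at 0, and *CD36* had 0.101 FPKM in control and 0.134 FPKM in silenced cells.

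All 6 carnitine shuttle genes tested were lower with anti-*APC* siRNA, where 7073 of all 12063 genes tested had a ratio under 1. They were also lower against the median of all genes or of genes of like level. Their median log2 ratio was -0.32, and 1 was at least 1.5-fold lower, where 6.61% of all genes tested were. This was *CRAT*, carnitine acetyltransferase, at 7.61 FPKM in control and 4.33 FPKM in silenced cells. *CPT1B* had 6.69 and 4.91 FPKM (log2 ratio -0.45) and *CPT2* had 9.26 and 7.61 FPKM (-0.28). *SLC25A20*, the carnitine-acylcarnitine carrier gene, had 9.28 and 8.41 FPKM (-0.14). *CPT1A* thus lay in the middle of this list and stood well above its other genes in level.

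Of 15 mitochondrial β-oxidation genes, 13 had a ratio under 1, against 7073 of 12063 genes tested, and 11 lay below the median of all genes. None of the 15 passed 1.5-fold (0 higher and 0 lower). The median log2 ratio was -0.24, and the range was -0.44 (*HADH*) to 0.06 (*ETFA*). *ETFA*, the most abundant, encodes the electron carrier subunit that accepts electrons from acyl-CoA dehydrogenases and had 128 FPKM in control and 133 FPKM in silenced cells, while its partner *ETFB* had 70.3 and 55.3 FPKM. *ACADVL* and *HADHA*, with log2 ratios of 0.03 and -0.15, were above the median of this list. *ECI2*, an enoyl-CoA isomerase gene, had 58.8 and 43.8 FPKM (-0.43).

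All 10 peroxisomal β-oxidation genes tested had a ratio under 1, against 7073 of 12063 genes tested. Of the 10, 9 also lay below the median of all genes, and the median log2 ratio was -0.37. Among the 10, 2 were at least 1.5-fold lower, where 6.61% of all genes tested were. *PEX11A*, a peroxisome proliferation gene, had 6.74 FPKM in control and 3.81 FPKM in silenced cells, and *ACOX2*, a branched-chain acyl-CoA oxidase gene, had 1.495 and 0.979 FPKM. *ACOX2* reached the minimum mean through its untransfected level, and with the median of genes of like level subtracted it was at -0.40, short of 1.5-fold. The most abundant were *ABCD3*, a peroxisomal fatty acid transporter gene, at 48.1 and 37.4 FPKM, *HSD17B4* at 42.7 and 36.2 FPKM and *ACAA1* at 18.1 and 15.2 FPKM. Cuffdiff marked *ACAA1* as having low data.

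Of 14 ketone body and other classical PPAR target genes, 6 had a mean of at least 1 FPKM, and 4 were listed at 0 in both libraries. Of the 6, 2 were 1.5-fold lower, where 6.61% of all genes tested were. Among the 2 was *IMPA2*, an inositol monophosphatase gene, at 9.93 FPKM in control and 5.35 FPKM in silenced cells. *ACAT1* had 52.3 and 52.2 FPKM, *OXCT1* had 31.1 and 35.8 FPKM, and the mitochondrial carrier gene *UCP2* had 4.92 and 5.91 FPKM.

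**Figure D4:**
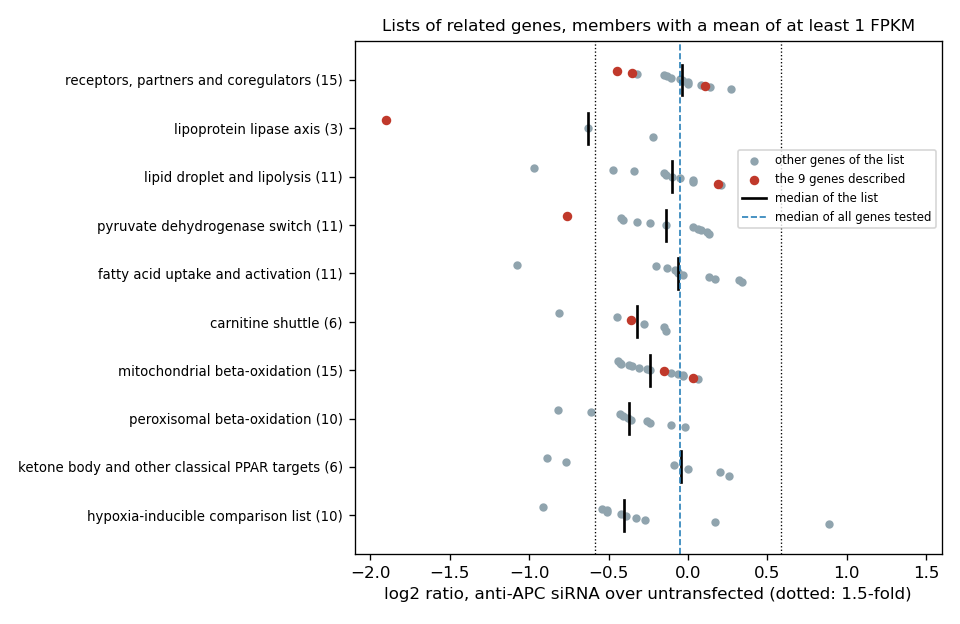
Log2 ratio of anti-*APC* siRNA over untransfected for genes with a mean of at least 1 FPKM in 10 lists, with the number of genes in brackets, list medians as black ticks, the 9 genes in red and dotted lines at 1.5-fold. Among the PPAR pathway lists the lipoprotein lipase, carnitine and peroxisomal lists lie wholly left of 0 (1 peroxisomal gene lies right of the median of all genes), and no gene of these lists passes the right dotted line.

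*ANGPTL4* is also induced by hypoxia, so 12 hypoxia-inducible genes were set beside it. Of the 10 with a mean of at least 1 FPKM, 8 had a ratio under 1, against 7073 of all 12063 genes tested. The median log2 ratio was -0.41, against -0.05 over all genes tested. *ANKRD37* was 1.88-fold lower (3.80 FPKM in control and 2.02 FPKM in silenced cells), whereas *SLC2A1*, the glucose transporter GLUT1, was 1.85-fold higher (81.9 and 151 FPKM). *NDRG1* had 51.6 and 39.5 FPKM, *ADM*, which encodes adrenomedullin, had 25.9 and 29.1 FPKM, and *VEGFA* had 11.5 and 7.91 FPKM. The hypoxia marker *CA9* was near 0, at 0.161 FPKM in control and 0.0294 FPKM in silenced cells. The part of hypoxia signaling in the level of *ANGPTL4* was not tested. Of the genes named from the lists, *RXRA*, *PDHA1*, *DLAT*, *CPT1B*, *CPT2*, *ETFA*, *ECI2*, *ACAA1*, *ANKRD37* and *SLC2A1* were listed at a locus with another gene, and how reads were divided there was not tested.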

How the data were processed

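Single-read mRNA libraries of HCT-116 cells were quantified by the authors, who assigned reads to transcripts with Cufflinks on hg19 and deposited FPKM per gene from Cuffdiff. The aligner, annotation and tool versions are not given in the sources used here. The table also holds the authors' own comparison (natural log ratio, test statistic, p and q), which was not used. The 9 genes and the 10 lists were chosen with earlier results of these data known.

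Log2 ratios of FPKM (anti-*APC* siRNA over untransfected) were computed without a pseudocount for 12063 genes with a mean of at least 1 FPKM and values above 0 in both libraries, which leaves out 134 genes at 0 in 1 library. A gene was counted as higher or lower from 1.5-fold. With 1 library per condition no p-value was computed. Named genes were the 9, *APC*, genes at their loci, and in each list the genes past 1.5-fold and the 3 most abundant. Others in the lists, such as partner subunits, paralogs and genes near or at 0, were named after their values were seen. Some genes of the lists are not reported here.

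Depth was estimated from low genes, whose FPKM move in steps of 1 read. In 437 genes the step differed by 0.13 on the log2 scale between libraries. Of 145 genes with 1 read against 2, 47 formed the peak that gave the depths, with canonical transcript lengths from GENCODE 44. Read numbers are therefore approximate. The 95% intervals are exact (Clopper-Pearson) on the 2 estimated read numbers. Ratios and depth were also computed on simulated reads. These were drawn with the same transcript lengths that the estimate uses, so they could not check those lengths or the depths of these libraries. Promoter windows came from RefSeq (GRCh38.p14), in which all 9 symbols matched with 16 starts, and other positions from GRCh37. Python 3.11.15, numpy 2.4.6, pandas 2.3.3, scipy 1.17.1 and matplotlib 3.10.9 were used.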

Additional observations from a re-analysis of the deposited data

How the results depend on the processing

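*ANGPTL4* kept a log2 ratio between -2.03 and -1.51 under the 6 other scalings and pseudocounts, the smallest size with 1 FPKM added, and lay past 1.5-fold in each. It left the genes tested when a mean of 5 FPKM was required, its own mean being 4.88. *PDK4* ranged from -0.89 to -0.39. *PPARD* ranged from -0.02 to 0.16 and so changed sign, and *ACADVL* from -0.10 to 0.08, whereas *PLIN2* stayed above 0 (0.06 to 0.25). Of the 9 genes, 2 were at least 1.5-fold lower as reported, where 6.61% of all genes tested were. Brackets below give that share of all genes at each setting. The number was 1 with a pseudocount of 1 FPKM (3.71%), 1 after centring on genes of like level (4.29%) and 1 at 2-fold (1.37%). It was 0 with a mean of at least 5 FPKM (3.77%) and 5 at the lowest fold threshold tried, below 1.5-fold (18.4%). The 0 was fixed by the filter, which kept 6 of the 9 genes and left out both *ANGPTL4* and *PDK4*. For all genes the counts of 309 higher and 797 lower became 448 lower with a pseudocount of 1 FPKM, 186 higher and 347 lower with a mean of at least 5 FPKM, 1084 and 2078 with no filter on low values, 115 and 165 at 2-fold, and 865 and 2219 at that lowest threshold. The filters also changed the number of genes tested, from 12063 to 9201 with a mean of at least 5 FPKM and 16289 with no filter. The shares lower were then 3.77% and 12.8%, against 6.61% as reported. Genes alone at their locus, 9164 in number, gave 182 higher. Centring on the FPKM of 1 read, which shifts all log2 ratios by -0.13, gave 1334 lower with 14.3% of calls higher, and centring on genes of like level gave 517 lower with 44.5% higher, against 27.9% as reported (both were chosen after seeing the data). List medians were recomputed under the scalings, pseudocounts and filters, not the other fold thresholds, and the lipoprotein lipase list had none with a mean of at least 5 FPKM. Each moved by less than the spread within its list, but near-zero medians changed sign. Fatty acid uptake went from -0.06 to 0.05 with a mean of at least 5 FPKM and to 0.06 after centring on genes of like level, the pyruvate dehydrogenase list from -0.14 to 0.03 with that filter, and the receptor list from -0.04 to 0.02 and the ketone body list from -0.05 to 0.01 at most under centring. No paired analysis was possible because there was 1 library per condition, and scrambled siRNA as the control was not run because that library was not analysed here.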

Other observations

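The genes closest to *ANGPTL4* in level in both libraries, by distance in log2 FPKM over the 2 libraries, were *EPHA1* at 6.85 FPKM in control and 2.15 FPKM in silenced cells (distance 0.18), *TXNRD2* at 7.02 and 2.61 FPKM (0.37), *ABCC3* at 6.02 and 1.90 FPKM (0.37), *CYP4F11* at 6.05 and 2.47 FPKM (0.44), and *LOC100130093* at 5.62 and 1.88 FPKM (0.47). *EPHA1* encodes an ephrin receptor, *TXNRD2* the mitochondrial thioredoxin reductase, *ABCC3* an export pump for organic anions and *CYP4F11* a fatty acid hydroxylase of the cytochrome P450 family. Likeness over 2 libraries is a description only.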
